A study of Paeonia suffruticosa with 12 samples.

Results

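MYB93 and YAB1 are 2 of the 130956 unigenes counted in seedlings of the peony "FengDan". They were named from the protein database matches in the study's lists of differentially expressed genes (DEGs) and were chosen by those lists, TRINITY_DN9537_c0_g2 (MYB93) from AC vs. CK and AC vs. PVP, and TRINITY_DN76361_c0_g1 (YAB1) from AC vs. CK and AC and PVP vs. PVP. Both had counts in enough libraries to be tested. Seedlings were raised in vitro from excised seed embryos, and 4 groups of 3 libraries were compared. The basal medium of every group held the auxin IAA. CK medium was free of anti-browning agents. PVP, or polyvinyl pyrrolidone, is a phenolic-binding polymer and was given at 2 g/L. AC, or activated carbon, adsorbs phenolics and was given at 0.9 g/L. The AC and PVP group received 0.9 g/L of AC together with 2.5 g/L of PVP, so the PVP dose was not the same with and without AC. Each library came from 10 pooled embryos, labelled 30 days after rooting in all groups. The study describes the CK and PVP seedlings as germinated but without roots formed and those with AC as rooted, so that time label cannot hold as written for CK and PVP, and rooting and AC cannot be told apart. The labels give roots, stems and leaves mixed in 1 sample, whereas the study's methods name leaves and roots.

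MYB93 is an R2R3-type MYB transcription factor. In Arabidopsis it responds to auxin, is made in the endodermis that overlies young lateral root primordia, and restrains lateral root formation. YAB1 belongs to the YABBY transcription factors, which in Arabidopsis mark the lower (abaxial) side of leaves and other lateral organs and take part in blade outgrowth. The names are best matches to proteins of other plants, and the species behind each match is not given in the sources used here. A mixed sample holds both organs, so a level can move with the share of root or leaf tissue, and fewer cells of a type and less RNA per cell cannot be told apart.

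In every library with AC, MYB93 was lower and YAB1 was higher than in every library without AC. Levels below are unscaled CPM, each count relative to its own library total, from libraries of 11071691 to 25069044 counts, and are not corrected for transcript length. MYB93 stood at 2.09, 0.563 and 3.45 CPM in CK replicates 1, 2 and 3 (48, 12 and 67 counts). In PVP it stood at 1.49, 0.878 and 1.44 CPM (36, 22 and 30 counts). In AC it stood at 0.148, 0.101 and 0 CPM (3, 2 and 0 counts), where a floor of 3 counts for the library at 0 is 0.152 CPM and its 95% exact interval reaches 0.187 CPM. In AC and PVP it stood at 0.355, 0.0554 and 0.452 CPM (7, 1 and 5 counts). The highest library with AC, AC and PVP replicate 3, lay just under the lowest library without it, CK replicate 2, and their 95% exact (Clopper-Pearson) counting intervals of 0.147 to 1.05 CPM and 0.291 to 0.983 CPM overlapped. Such intervals and limits cover counting error only.

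YAB1 was the reverse. It stood at 0.0435, 0.234 and 0.0514 CPM in CK replicates 1, 2 and 3 (1, 5 and 1 counts) and at 0.538, 0.239 and 0.0958 CPM in PVP (13, 6 and 2 counts). In AC it stood at 1.43, 1.61 and 0.860 CPM (29, 32 and 17 counts), and in AC and PVP at 2.43, 0.996 and 2.08 CPM (48, 18 and 23 counts). The lowest library with AC was AC replicate 3 and the highest without was PVP replicate 1, with counting intervals of 0.501 to 1.38 and 0.287 to 0.920 CPM. Of the 58247 unigenes tested, 0.192% had every library with AC above every library without, and 0.467% had every one below. Since the members were chosen by comparisons of these libraries, nothing is read from these shares. CK replicate 2 held the lowest MYB93 and the highest YAB1 level of its group.

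**Figure D1:**
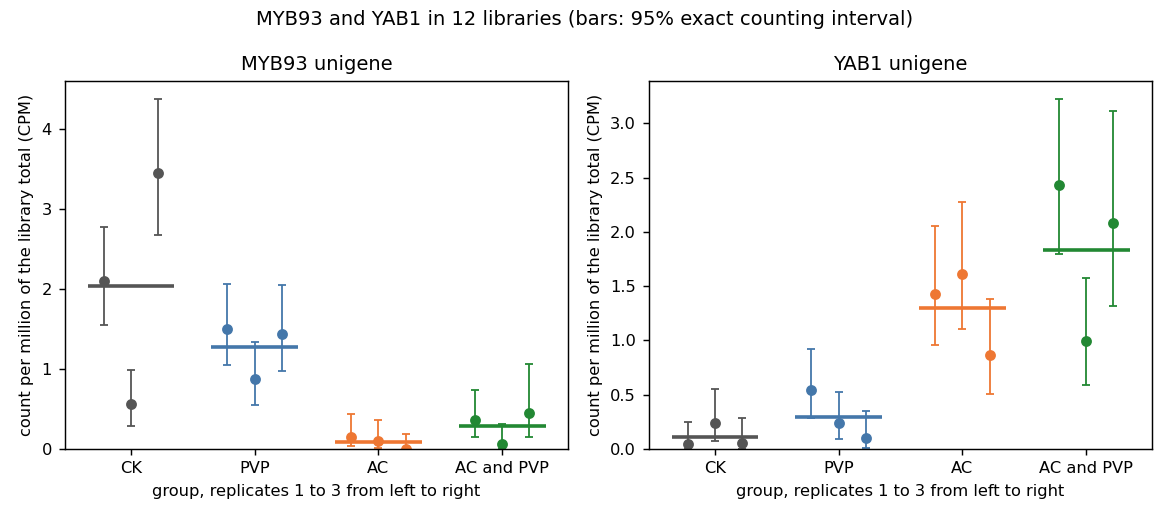
Levels of MYB93 (left) and YAB1 (right) in CPM of the library total (vertical axis) by group (horizontal axis). Points are the 12 libraries, vertical bars their 95% exact counting intervals, and horizontal lines the means of 3 libraries. MYB93 reached 0.452 CPM at most in libraries with AC and 0.563 CPM at least in those without, and YAB1 reached 0.860 CPM at least with AC and 0.538 CPM at most without.

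Scaled by TMM, which corrects for differences in library composition, the order of MYB93 levels was CK and PVP, then AC and PVP, then AC. The mean was 1.52 CPM ± 1.03 (SD, n = 3) for CK, 1.52 ± 0.354 for PVP, 0.283 ± 0.196 for AC and PVP and 0.0753 ± 0.0659 for AC. YAB1 was ordered as AC and PVP at 1.85 CPM ± 0.566 (SD, n = 3), AC at 1.29 ± 0.334, PVP at 0.331 ± 0.213 and CK at 0.0977 ± 0.110. Among all tested unigenes the mean of MYB93 was higher than that of 78.4% in CK and 49.3% in AC, and the mean of YAB1 was higher than that of 49.0% in CK and 80.8% in AC and PVP.

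In the comparisons by which they were chosen, the values are a description. MYB93 had log2 fold changes of -4.13 (SE 0.78) against CK and -4.12 (SE 0.79) against PVP in the AC group, that is 17.6-fold and 17.4-fold lower in AC. YAB1 had log2 fold changes of 3.77 (SE 0.70) in AC vs. CK and 2.41 (SE 0.60) for AC and PVP against PVP, that is 13.7-fold and 5.30-fold higher. A unigene was called a DEG at an edgeR quasi-likelihood p, adjusted by Benjamini-Hochberg over all unigenes, under 0.05 with an absolute log2 fold change over 1. By that rule 0.324% of all unigenes were called in AC vs. CK and 0.264% in AC vs. PVP. The comparison of AC and PVP with PVP called 0.0704%.

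Among the comparisons that did not choose it, YAB1 passed the test in AC and PVP vs. CK. It rose 19.6-fold there, by 4.29 on the log2 scale (SE 0.70, edgeR adjusted p = 0.0120), and 0.833% of all unigenes were called there. AC and PVP vs. CK was not among the lists that chose YAB1, but both of its groups were, each in another pairing. Low CK levels and high AC and PVP levels were thus favoured by the choice. The edgeR adjusted p above is therefore a description and not independent evidence of a difference. The call was lost without CK replicate 3, where the log2 fold change was 4.02 (SE 0.78) and the edgeR adjusted p 0.0580. Without CK replicate 1, they were 3.89 (SE 0.75) and 0.0451, and both libraries held 1 YAB1 count. The adjusted p also depends on the other unigenes, and 33 to 741 of all unigenes were called with 1 library left out. Without each of the 11 libraries other than CK replicate 3 the adjusted p stayed between 0.00246 and 0.0451.

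MYB93 was 5.42-fold lower in AC and PVP vs. CK (-2.44 on the log2 scale, SE 0.68) and 5.39-fold lower in AC and PVP vs. PVP (-2.43, SE 0.69), and neither passed after adjustment (edgeR adjusted p = 0.101 and 0.278). The AC and PVP libraries took no part in choosing MYB93, while the CK and PVP libraries did. All 3 AC and PVP libraries lay under all 6 libraries of CK and PVP. The share of all unigenes with that order was not counted, so nothing is read from it. The AC and PVP vs. CK difference passed without CK replicate 2 (log2 fold change -2.83, edgeR adjusted p = 0.0374), in a DESeq2 fit of all libraries (-2.33, adjusted p = 0.0483) and in 2 further alternatives, so that its side of the threshold depended on these settings.

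MYB93 did not differ detectably between PVP and CK. The log2 fold change in PVP vs. CK was -0.01 (SE 0.56, 95% interval -1.18 to 1.16, edgeR adjusted p = 1), and the interval leaves room for a change of more than 2-fold either way. YAB1 had a 3.71-fold higher fitted level in PVP vs. CK (log2 fold change 1.89, SE 0.77, 95% interval 0.26 to 3.52), which did not pass (edgeR adjusted p = 0.341). PVP replicate 3 lay within the CK range, and PVP replicate 2, at 0.239 CPM, lay just above the highest CK library. In PVP vs. CK, 0.702% of all unigenes were called.

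AC with and without PVP did not differ detectably for either unigene. In AC vs. AC and PVP the log2 fold change of MYB93 was -1.70 (SE 0.94, 95% interval -3.67 to 0.28, edgeR adjusted p = 0.776) on 5 and 13 counts in all. That of YAB1 was -0.52 (SE 0.54, 95% interval -1.65 to 0.61, adjusted p = 0.826), and only 0.00687% of all unigenes were called. YAB1 in AC vs. PVP had a log2 fold change of 1.88 (SE 0.60) and did not pass (edgeR adjusted p = 0.316). Its 3 AC libraries lay above its 3 PVP libraries, an order whose share over all unigenes was not counted. How far the AC effect changed when PVP was present, the interaction, was 1.70 (SE 1.09) for MYB93 and -1.37 (SE 0.93) for YAB1 on the log2 scale, values that include a comparison used in choosing each.

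**Figure D2:**
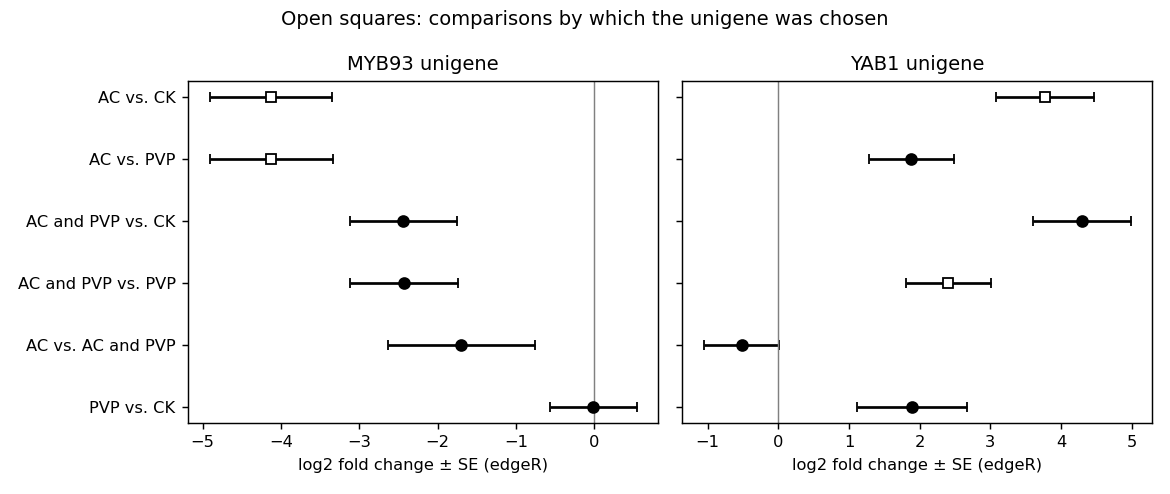
Log2 fold changes of MYB93 (left) and YAB1 (right) in the 6 comparisons (rows), first-named group over second. Bars are ± 1 SE from the edgeR fit of 12 libraries. Open squares are comparisons by which the unigene was chosen, and filled circles are the others. MYB93 lay at -2.44 and -2.43 in AC and PVP against CK and PVP and at -0.01 in PVP vs. CK, and YAB1 lay at 4.29 in AC and PVP vs. CK.

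Trinity, the assembler, groups similar transcripts into a component, and reads can be divided among its unigenes. The component of MYB93 held 5 unigenes, whereas that of YAB1 held YAB1 alone. The main partner of MYB93, TRINITY_DN9537_c0_g1, has no name in the study's lists and had a TMM-scaled mean of 2.27 CPM ± 0.9001 (SD, n = 3) for AC, 3.67 ± 0.335 for AC and PVP, 4.46 ± 1.69 for PVP and 2.83 ± 0.271 for CK. It was not called in any of the 6 comparisons, with log2 fold changes of -0.32 (SE 0.36) in AC vs. CK and 0.37 (SE 0.36) in AC and PVP vs. CK. Of the counts of the whole component, MYB93 took 32.4%, 14.6% and 42.1% in CK, 23.2%, 15.7% and 40.5% in PVP, 4.41%, 7.69% and 0% in AC, and 8.64%, 1.79% and 10% in AC and PVP. Its share was thus lower in every library with AC than in every library without. At the edge, AC and PVP replicate 3 held 10% on 5 MYB93 counts and CK replicate 2 held 14.6% on 12. Their counting intervals of 3.33% to 21.8% and 7.80% to 24.2% overlapped. In the AC, CK and PVP libraries the share rests on counts by which MYB93 was chosen. How often other components have this order was not counted, so nothing is read from it. The reads of MYB93 and TRINITY_DN9537_c0_g1 may be divided between near-identical sequences, and how far that bears on the MYB93 counts was not tested.

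A second unigene named YAB1, TRINITY_DN6291_c2_g1 from another component, was the named unigene most like the first. It stood at 0.305, 1.55 and 0.566 CPM in CK, 4.84, 1.197 and 0.335 in PVP, 6.89, 11.2 and 4.30 in AC and 8.57, 3.93 and 6.23 in AC and PVP. Only PVP replicate 1 reached into the range of the libraries with AC. Its log2 fold change was 3.20 (SE 0.73) in AC and PVP vs. CK, which did not pass (edgeR adjusted p = 0.0526), and 1.78 (SE 0.71) in PVP vs. CK. PVP replicate 1 was also the highest PVP library for the first YAB1 unigene.

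The other leaf polarity and blade regulators among the study's named DEGs were 4 unigenes, all tested, of which 2 rose in AC and PVP vs. CK and none fell, where 0.833% of all unigenes were called. Because the study called each of them in at least 1 comparison of these libraries, their direction is not independent evidence. AS1, a MYB-type factor needed for the upper side of the leaf, stood at 2.44, 1.92 and 1.85 CPM in CK, 5.26, 1.71 and 2.30 in PVP, 5.71, 8.12 and 6.07 in AC and 10.6, 6.20 and 18.8 in AC and PVP. All 6 libraries with AC lay above the other 6, as for 0.192% of all unigenes tested. The log2 fold change of AS1 was 2.88 (SE 0.41, edgeR adjusted p = 0.00996) in AC and PVP vs. CK. STF2, a WOX homeobox regulator of blade outgrowth, was called there too, on 2, 0 and 0 counts in CK against 45, 34 and 19 in AC and PVP, and it was the 1 list unigene called in PVP vs. CK, with 17, 6 and 73 counts in PVP, where 0.702% of all unigenes were called. That list had no call in PVP vs. CK in 7 of the 12 fits with 1 library left out, namely without any 1 of the 3 CK libraries, PVP replicates 1 and 3 or AC and PVP replicates 1 and 3. Over all unigenes, 5 to 626 were called in those 12 fits, against 409 with all libraries. YAB5, another YABBY factor, had a log2 fold change of 2.07 (SE 0.48) and did not pass (adjusted p = 0.0570). The median of the list was 3.04 in AC and PVP vs. CK against -0.12 for all unigenes tested.

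Zinc finger homeodomain genes, several of which act in Arabidopsis leaf and flower development, numbered 4, of which 2 rose in AC and PVP vs. CK (against 0.833% of all unigenes called) and none fell, with a median log2 fold change of 2.53. They too were taken from the study's DEGs of these libraries and are not independent evidence of a direction. ZHD3 rose with a log2 fold change of 2.60 (SE 0.43, edgeR adjusted p = 0.0145) and ZHD4 with 4.67 (SE 0.96, adjusted p = 0.0370). ZHD4 stood at 0.827, 0.141 and 0.360 CPM in CK and at 12.1, 2.38 and 12.01 CPM in AC and PVP. None of the 5 unigenes of leaf growth and stomata (GIF1 and GRF10, partners in leaf cell proliferation, the receptor kinase ERECTA, and 2 unigenes of EPFL9, the stomata-promoting peptide) passed there, and their median was 1.38. One EPFL9 unigene, TRINITY_DN50914_c0_g1, had 0 counts in all 6 libraries of CK and PVP, with 4, 13 and 9 counts in AC and 20, 0 and 11 in AC and PVP, so that AC and PVP replicate 2 was at 0 as well.

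Of the 7 root development regulators, 5 fell and 1 rose in AC and PVP vs. CK, where 0.833% of all unigenes were called in either direction. Their median log2 fold change was -2.18 against -0.12 for all unigenes tested. The study had listed all 7 in AC vs. CK, which shares the CK libraries, so this direction follows in part from how they were chosen and is not independent evidence. The difference from the leaf lists was not tested. PLET2 (PLETHORA2, a factor of the root stem cell niche) stood at 10.5, 1.88 and 5.61 CPM in CK and at 0.0507, 0.332 and 0.271 CPM in AC and PVP. Its log2 fold change was -4.28 (SE 0.80, edgeR adjusted p = 0.0232). MYB36, which in Arabidopsis switches on the Casparian strip genes of the endodermis, stood at 10.3, 12.3 and 10.9 CPM in CK and 1.93, 2.66 and 1.90 CPM in AC and PVP (-1.97 on the log2 scale, SE 0.36, adjusted p = 0.0235). DRO1 (a root angle regulator), RITF1 (which acts in root meristem growth factor signalling) and MYB59 fell as well, with log2 fold changes of -2.88 (SE 0.59), -2.18 (SE 0.43) and -3.50 (SE 0.72). MIZ1, needed for root hydrotropism, was the 1 that rose (2.12, SE 0.40, adjusted p = 0.0255).

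In PVP the root list and MYB93 are set side by side, without a test of the difference between them. MYB93 was chosen from AC vs. CK and AC vs. PVP, so high levels in both CK and PVP were favoured. The study had listed all 7 root unigenes in AC vs. CK and none of them in AC vs. PVP. A difference between them and MYB93 in PVP vs. CK follows in part from these choices, and nothing is read from it. MYB36 stood at 2.28, 3.47 and 3.93 CPM in PVP, all under its CK libraries. Log2 fold changes in PVP vs. CK were -1.17 (SE 0.35) for MYB36, -1.79 (SE 0.41) for RITF1, -2.47 (SE 0.67) for PLET2 and -1.87 (SE 0.56) for DRO1. They were -1.72 (SE 0.65) for MYB59, -0.14 (SE 0.33) for RHL1 and 1.17 (SE 0.39) for MIZ1, and MYB93 had -0.01. No unigene of the root list passed the test there, where 0.702% of all unigenes were called. Among the 7, RHL1, required for root hair growth in Arabidopsis, was the 1 whose 6 libraries with AC all lay under the other 6, as for MYB93. That order was seen in 0.467% of all unigenes tested. In unscaled CPM, RHL1 stood at 18.8, 15.3 and 18.5 in CK, 8.36, 13.7 and 8.29 in PVP, 7.39, 4.79 and 4.30 in AC and 3.70, 6.25 and 3.79 in AC and PVP. Scaled by TMM, its mean was 13.8 CPM for CK and 12.5 CPM for PVP. It did not pass in AC and PVP vs. CK (log2 fold change -1.48, SE 0.35, edgeR adjusted p = 0.0592).

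Of 8 other MYB unigenes, MYB36 and MYB59 among them, 3 fell and 1 rose in AC and PVP vs. CK, against 0.833% of all unigenes called. MYB86 fell with a log2 fold change of -2.63 (SE 0.39, edgeR adjusted p = 0.0102), from 9.97, 3.89 and 10.1 CPM in CK to 1.27, 0.664 and 0.903 CPM in AC and PVP, and MY106, a MIXTA-like epidermal factor, rose from 2, 0 and 1 counts to 9, 13 and 13. In AC vs. CK, where the study itself had listed all 7 root unigenes and others of the 5 lists, AS1 and MYB17 rose and DRO1, RITF1 and MYB86 fell, and 0.324% of all unigenes were called. With 1 library left out, the leaf polarity list had no call there in 5 of 12 fits, the root list in 4 and the other MYB list in 3, and none of these 3 lists had one without AC replicate 3, CK replicate 1 or CK replicate 3. Over all unigenes, 0 to 420 were called in those fits, against 189 with all libraries. None of the 26 unigenes passed in the comparisons of AC with PVP, of AC and PVP with PVP, or of AC with AC and PVP. The calls in AC and PVP vs. CK depended on single libraries: without CK replicate 3 none of the 26 was called, and without AC and PVP replicate 3 only 1 was, in the leaf polarity list. AC and PVP replicate 3 had the lowest total count of the 12 libraries (11071691). The study also reports the fewest reads and the lowest share of high-quality bases for it. Without CK replicate 1 and without AC and PVP replicates 1 and 2 the root list had 3, 0 and 2 calls. The number called over all unigenes moved as well, from 33 to 741 with 1 library left out, against 485 with all libraries.

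**Figure D3:**
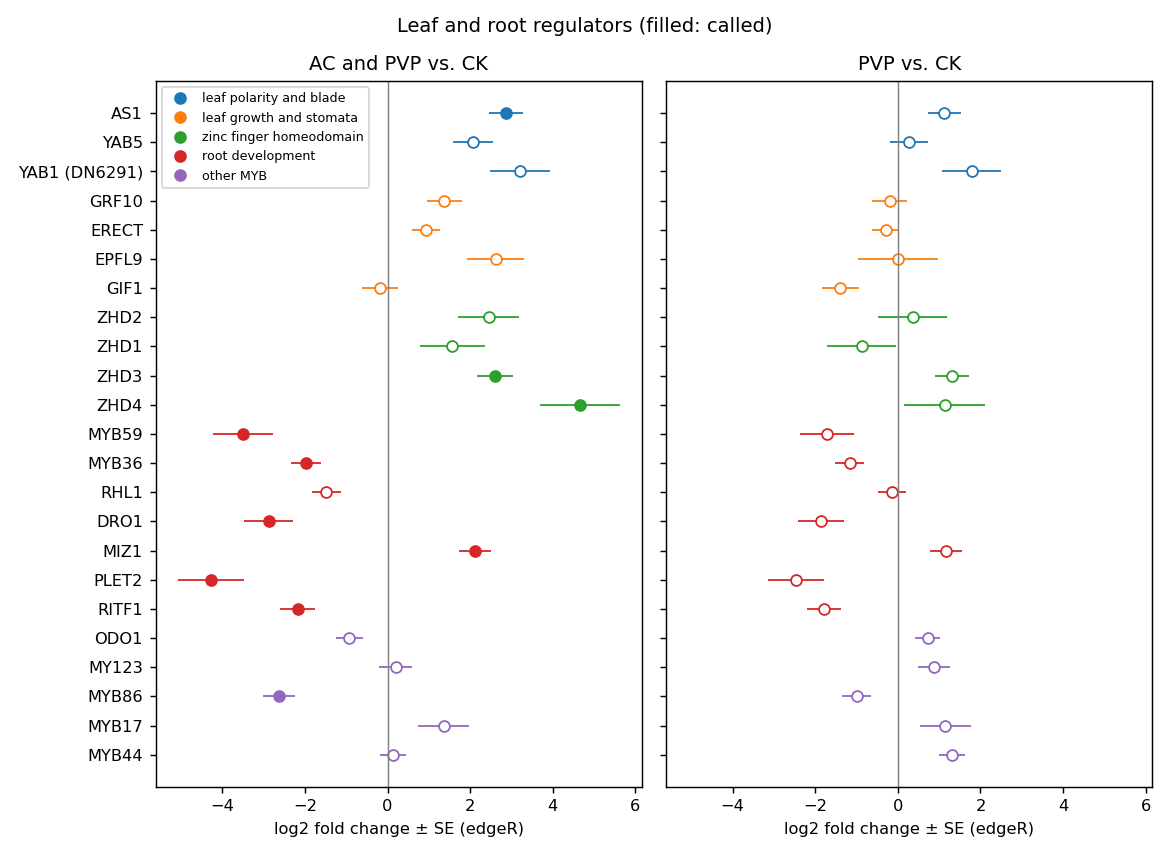
Log2 fold changes ± SE (horizontal axis) of leaf and root regulators (rows, coloured by list) in AC and PVP vs. CK (left) and PVP vs. CK (right), from the edgeR fit of 12 libraries. Filled points were called and open ones were not. Of 26 unigenes 23 are drawn, and 3 at 3 or fewer counts in CK, PVP or AC and PVP in all are left out. Those left out are STF2, called in both comparisons, MY106, called in AC and PVP vs. CK, and EPFL9 TRINITY_DN50914_c0_g1, called in neither. PLET2 lay at -4.28 and AS1 at 2.88 on the left.

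Among the 768 other named unigenes tested, those most like MYB93 over the 12 libraries (Pearson's r of TMM-scaled log2 CPM, given as a description, with libraries of the same 4 groups as points) were LTG20 (r = 0.956), GPDH1 (0.939), GDL80 (0.923), HIP4 (0.921) and C7A15 (0.916). LTG20 is a GPI-anchored lipid transfer protein, GDL80 a GDSL esterase, GPDH1 a glycerol-3-phosphate dehydrogenase, HIP4 a heavy-metal-associated isoprenylated protein and C7A15 a cytochrome P450. LTG20 stood at 9.45, 1.97 and 10.03 CPM in CK, 4.89, 4.99 and 11.1 in PVP, 0.493, 0.353 and 0.0506 in AC and 0.811, 0.720 and 1.26 in AC and PVP. CK replicate 2 was the lowest CK library for LTG20 too. Each of the 5 had every library with AC under every library without, as had 0.467% of all unigenes tested. They were picked for likeness to MYB93, which divides the libraries in the same way, so this follows in part from the choice.

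The named unigenes most like YAB1 were the second YAB1 unigene (r = 0.960), FLZ15 (0.958), ISPH (0.951), CPT4 (0.945) and HIP7 (0.938). FLZ15 is an FCS-like zinc finger protein, ISPH the last enzyme of plastid isoprenoid precursor synthesis and HIP7 a heavy-metal-associated isoprenylated protein. FLZ15 had 3, 4 and 0 counts in CK and 41, 28 and 50 in AC and PVP, and HIP7 stood at 4.92, 5.02 and 3.60 CPM in CK and 22.9, 9.46 and 35.1 CPM in AC and PVP. FLZ15 and HIP7 had every library with AC above every library without (0.192% of all unigenes tested), while ISPH, CPT4 and the second YAB1 unigene overlapped. With Spearman's rho in place of Pearson's r, 3 of the 5 for MYB93 and 2 of the 5 for YAB1 stayed among the nearest 5. Each list is made of unigenes the study had called, which follow AC by that choice.

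**Figure D4:**
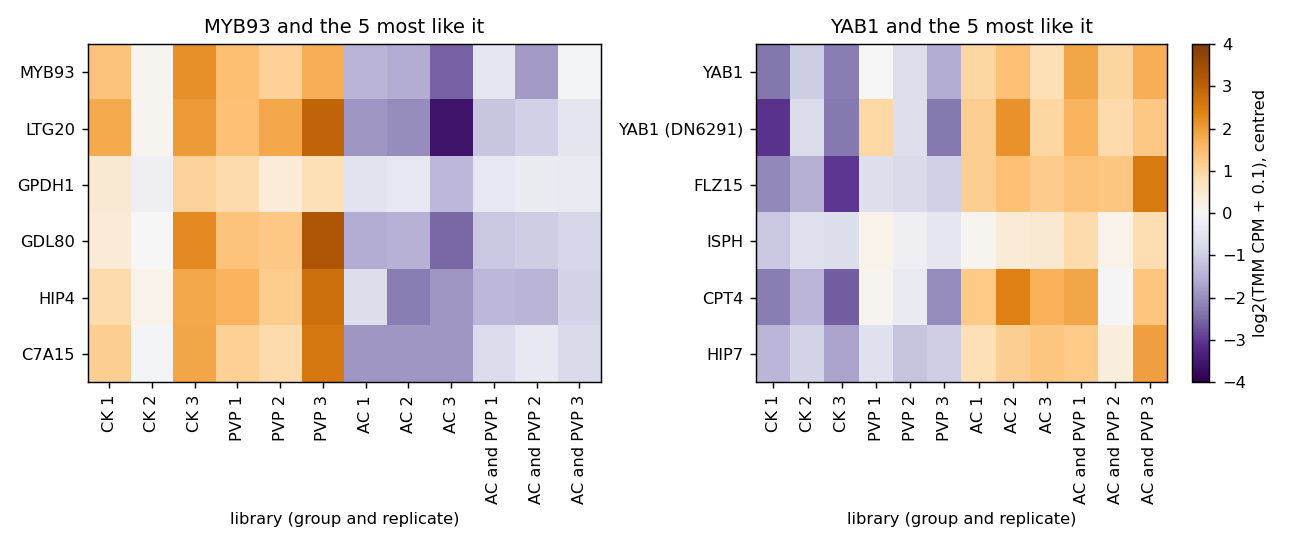
MYB93 (left) and YAB1 (right), each with the 5 named unigenes most like it (rows), in the 12 libraries (columns). Colours give log2(TMM-scaled CPM + 0.1) minus the row's mean. CK replicate 2 is nearer the libraries with AC than the other CK libraries are for MYB93 (0.563 CPM against 2.09 and 3.45).

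Marker sums of organs and seed reserves moved with these unigenes in part. The 8 root barrier unigenes (Casparian strip and suberin genes) summed to 35.4 to 71.0 CPM in AC, 60.7 to 79.0 in AC and PVP, 193 to 379 in PVP and 136 to 425 in CK, so the libraries with AC lay apart from the others, as for MYB93. None of the 8 was at 0 in all libraries of a group. Of the 8, 4 fell in AC vs. CK and 5 in AC vs. PVP, against 0.324% and 0.264% of all unigenes called. When AC and PVP was compared, 3 fell against PVP (0.0704% of all unigenes called) and 1 against CK (0.833%). In each of these comparisons 2 of the 8 had a positive log2 fold change, and none was called higher. All marker unigenes were named from the study's own DEG tables of these libraries, so their differences are not independent evidence. The 11 leaf light harvesting unigenes summed to 108 to 191 CPM in AC, 257 to 421 in AC and PVP, 195 to 443 in PVP and 45.6 to 209 in CK, so that PVP, with little YAB1, was above AC, with more. One of the 11 was at 0 in all PVP libraries and 1 in all AC libraries. Seed storage and oil body unigenes, 14 without 1 vicilin unigene that was high in all libraries (left out after its values were seen), summed to 45990 CPM in CK replicate 2 against 149 and 55.0 in the other CK libraries, to 2317 to 27250 CPM with AC, 908 to 18330 with AC and PVP and 41.9 to 266 with PVP. The root barrier sum was higher in CK and PVP, which the study describes as without roots, than in the rooted groups with AC. It is therefore not read as an amount of root tissue. Unigenes of all 3 marker lists were counted in all 4 groups, and the part of tissue makeup and of seed reserves in the MYB93 and YAB1 levels was not tested.

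**Figure D5:**
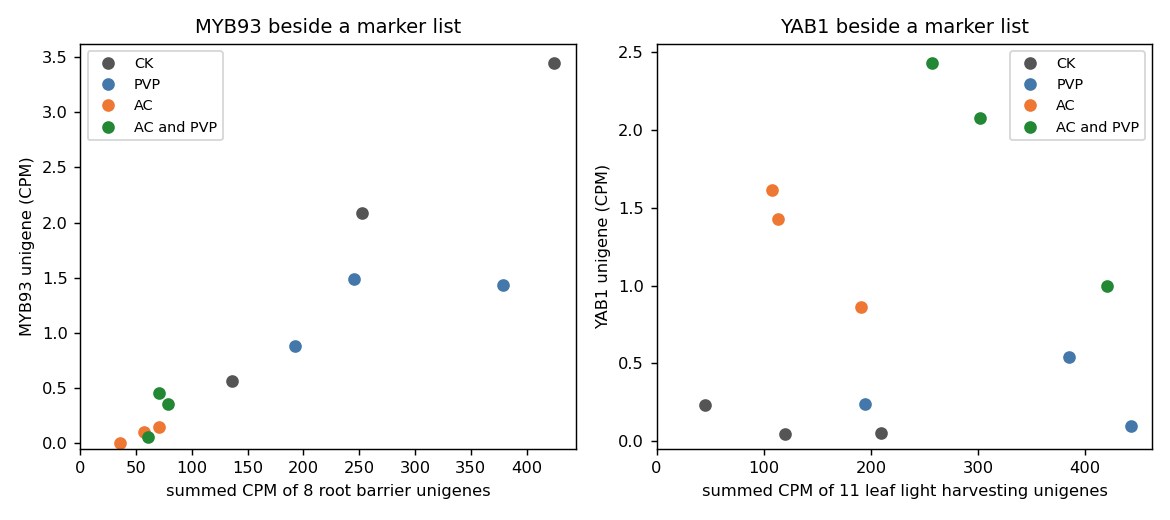
MYB93 (left) and YAB1 (right) in CPM (vertical axes) against the summed CPM of 8 root barrier unigenes (left) and 11 leaf light harvesting unigenes (right) in the same library (horizontal axes), 1 point a library, coloured by group. Libraries with AC stayed at or under 79.0 CPM of root barrier unigenes and 0.452 CPM of MYB93, whereas AC libraries with 108 to 191 CPM of light harvesting unigenes held 0.860 to 1.61 CPM of YAB1.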

How the data were processed

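The authors trimmed reads with TrimGalore, assembled unigenes with Trinity, aligned reads with Bowtie and estimated counts per unigene with RSEM. These deposited expected counts are not normalized, and 2.39% to 3.97% of values per library were not whole and were rounded. Of 130956 unigenes, 58247 had counts in 3 or more of the 12 libraries and were kept, scaled by TMM (factors 0.752 to 1.46) and fitted together with edgeR 4.0.16 (R 4.3.3, limma 3.58.1) by its quasi-likelihood test with Benjamini-Hochberg adjustment. The SE is the absolute log2 fold change over the square root of F, and the prior count was 2 for log2 CPM. The fit was also run on simulated data that had the same dispersion for all unigenes, which checks the code and not the results given here. Groups came from the sample titles. Names come from the study's supplementary tables, which name 769 of their 1555 unigenes. The text names both members, 5 gene lists, 3 marker lists, unigenes of the same Trinity component and the 5 most alike. Members and lists were chosen with earlier results of these data known. P-values set a group difference against the spread between pooled samples, which may be partly technical. Alternatives were DESeq2 1.42.0, other scalings, filters, dispersion settings, the replicate number as a block and each library left out. No sequences or genome were used here.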

Additional observations from a re-analysis of the deposited data

How the results depend on the processing

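Both unigenes kept their direction under every alternative in 5 of the 6 comparisons, MYB93 in PVP vs. CK being the exception. There the log2 fold change of MYB93 was -0.68 with library sizes only, where the median of all unigenes moved from -0.15 to -0.76, and it turned to 0.062 with RLE size factors, 0.061 with filterByExpr, 0.069 and 0.063 with DESeq2 on all libraries and on 2 groups, 0.019 with edgeR on 2 groups, and -0.40 to 0.59 when 1 library was left out. The MYB93 difference passed without a filter in AC and PVP vs. PVP (-2.42) and AC and PVP vs. CK (-2.42), and in the latter with DESeq2 on all libraries (-2.33). Leaving out 1 library moved it between -2.83 and -1.79 in AC and PVP vs. CK, and moved YAB1 there between 3.89 and 5.54. The cause was not tested.

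The number of DEGs depended strongly on the settings. In AC vs. CK it was 189, but 1882 without a filter, 823 and 554 with DESeq2 on all libraries and on 2 groups, 100 with edgeR on 2 groups and 0 to 420 with 1 library left out. In AC vs. PVP it was 154, but 1743, 721, 793 and 500 in that order and 53 to 275. In AC and PVP vs. PVP it was 41, but 1912, 335, 748 and 446, 5 with filterByExpr, 77 with the legacy dispersion estimate and 5 to 178. In AC vs. AC and PVP it was 4, but 1048, 41, 84 and 13, 2 with RLE, 1 with filterByExpr, 2 with robust estimation and 2 to 20. In PVP vs. CK it was 409, but 2449 without a filter, 1673 and 1626 with DESeq2, 1145 with library sizes only, 833 with filterByExpr and 5 to 626. In AC and PVP vs. CK it was 485, but 2803, 1608, 1442 and 285, 784 with library sizes only, 814 with filterByExpr and 33 to 741. For the interaction it was 1, but 1382 without a filter, 104 with DESeq2, 5 with library sizes only, 0 with filterByExpr, 11 with the legacy estimate, 2 with robust estimation and 0 to 10.

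With library sizes only, higher and lower calls went from 105 and 84 to 71 and 167 in AC vs. CK, from 307 and 102 to 171 and 974 in PVP vs. CK, from 267 and 218 to 212 and 572 in AC and PVP vs. CK, from 36 and 118 to 60 and 103 in AC vs. PVP and from 17 and 24 to 23 and 11 in AC and PVP vs. PVP.  

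The labels number replicates 1 to 3 in each group. Of 18 same-number pairs, 7 deviated together at r over 0.1. Their r ran from -0.1246 to 0.1955, against -0.2442 to 0.2408 for different-number pairs. In all, 7 of the 12 libraries were nearest to one of their own number in another group. How many would be so without pairing was not worked out. The study's methods describe the biological replicates as paired, without saying what was matched. The values above do not settle whether the numbers mark pairs, and the main fit left the numbers out. With the replicate number as a block, MYB93 had log2 fold changes of -2.35 in AC and PVP vs. CK, where it passed, and 0.156 in PVP vs. CK, and DEGs numbered 722, 664, 438, 53, 1324, 1448 and 105 in the order above. Counts of 0 to 12 for MYB93 or YAB1 in single libraries limit the precision of each level.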
